A study of Mus musculus with 26 samples.

Results

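The promoters described here belong to genes that gave almost no RNA in cultured mouse leukaemia cells, and the question asked of them was how much H3K4me2 they carry in normal marrow progenitors. The genes were selected on RNA counts: a member is an autosomal protein-coding gene with a sum of 0 or 1 counts over 24 RNA libraries. There were 4770 members among 19969 genes matched to the count table, or 23.9%. No count at all was recorded for 4175 of them and a single count for 595. A window reached 1 kb to each side of an annotated gene end in GRCm38 (mm10), and of the 2 ends the one with more H3K4me2 reads over both libraries was used. That choice favours high values, so the level of a window is the larger of 2.

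H3K4me2 was measured by chromatin immunoprecipitation and sequencing (ChIP-seq) in lineage-negative bone marrow, the fraction enriched for stem and progenitor cells, of untreated C57BL/6 mice. There was 1 GFI1-KD library and 1 GFI1-WT library, and neither the making of the GFI1-KD animals nor the number of mice per library is described in the labels. The RNA came from other cells: C57BL/6 myeloid progenitors transformed with Hoxa9 and Meis1 (H9M) or with MN1, in which LSD1 (Kdm1a, a demethylase that removes methyl groups from H3K4) was knocked out (KO) or left intact (CTL), each with 1 µM all-trans retinoic acid (ATRA) or without it, 3 libraries in each of 8 groups. KO cells received 0.1 µM 4-hydroxytamoxifen for 72 h. The strain is given as CreERT2-;LSD1TM1Schuele for KO and CTL samples alike, and no such drug is listed for CTL. Silence in the leukaemia cells therefore does not mean silence in the marrow cells.

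H3K4me2 lies at active promoters and also at poised ones, where it can be present before a gene is transcribed. CpG islands, stretches rich in the dinucleotide CG that mark many housekeeping and developmental promoters, are favoured sites for the enzymes that methylate H3K4. GFI1 is a transcriptional repressor of blood progenitors that recruits LSD1.

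After reads under a mapping quality of 10 were dropped, 9538627 were left in GFI1-KD and 8949072 in GFI1-WT. Levels are in RPM, the usual scaling of reads by these totals. Members' windows held 0.623% of the GFI1-KD reads and 0.625% of the GFI1-WT reads. With 1 library per group there is no replicate check and no test: intervals are exact 95% Clopper-Pearson intervals and cover counting error only. The Gfi1 window itself had 404 reads in GFI1-KD and 269 in GFI1-WT, or 42.4 and 30.1 RPM, so the mark at Gfi1 was not lower in the library labelled GFI1-KD. H3K4me2 at a locus does not measure its RNA or protein. The Y chromosome had 98 reads in GFI1-KD and 1530 in GFI1-WT, and the members are autosomal. What set the difference in Y reads was not tested. With 1 library per group, it cannot be told apart from GFI1-KD in any ratio below. All 12 progenitor genes and all 10 stem cell genes of the marker lists were marked in both libraries, by the rule given below. None of them is a member. The share over all autosomal protein-coding genes was 69.7%, and in lists of other lineages 16 of 20 megakaryocyte and 17 of 25 B cell genes were marked.

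The range of members is easiest to see in a few of their promoter sequences, from RefSeq on GRCm38.p6, each 250 bases before to 50 bases after a gene start, 5′ to 3′. The first 6 have the dinucleotide CG in capitals. Cdkl1 (chr12:69790658-69790957, minus strand), Mrpl53 (chr6:83108858-83109157, plus strand), Epha4 (chr1:77515039-77515338, minus strand) and Tnfaip8l3 (chr9:54068362-54068661, minus strand) are shown because they had the highest levels among members that have a sequence inside the window and no expressed neighbour. Hoxa13 (chr6:52260831-52261130, minus strand) had the highest level among homeobox members, and Cxcl1 (chr5:90890995-90891294, plus strand) the highest GFI1-KD over GFI1-WT ratio among marked members with at least 40 reads and such a sequence. Hoxa13 here and Trim10 below were chosen after their values were seen.
Cdkl1: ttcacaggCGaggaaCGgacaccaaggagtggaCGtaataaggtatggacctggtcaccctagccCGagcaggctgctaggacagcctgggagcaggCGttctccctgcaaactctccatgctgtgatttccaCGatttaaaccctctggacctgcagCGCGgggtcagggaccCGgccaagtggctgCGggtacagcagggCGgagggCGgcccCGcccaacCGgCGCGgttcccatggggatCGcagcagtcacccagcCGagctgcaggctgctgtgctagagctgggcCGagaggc
Mrpl53: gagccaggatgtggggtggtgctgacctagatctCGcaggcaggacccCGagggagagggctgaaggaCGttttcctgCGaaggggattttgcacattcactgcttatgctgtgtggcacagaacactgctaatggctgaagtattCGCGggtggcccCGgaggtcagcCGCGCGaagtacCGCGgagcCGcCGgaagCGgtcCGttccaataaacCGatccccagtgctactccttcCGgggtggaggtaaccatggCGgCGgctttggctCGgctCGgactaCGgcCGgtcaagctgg
Epha4: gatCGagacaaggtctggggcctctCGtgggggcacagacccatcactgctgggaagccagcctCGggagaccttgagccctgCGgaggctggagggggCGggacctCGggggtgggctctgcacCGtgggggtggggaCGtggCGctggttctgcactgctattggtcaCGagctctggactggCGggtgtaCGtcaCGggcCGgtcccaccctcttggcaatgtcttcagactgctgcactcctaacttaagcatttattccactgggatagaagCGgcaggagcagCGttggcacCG
Tnfaip8l3: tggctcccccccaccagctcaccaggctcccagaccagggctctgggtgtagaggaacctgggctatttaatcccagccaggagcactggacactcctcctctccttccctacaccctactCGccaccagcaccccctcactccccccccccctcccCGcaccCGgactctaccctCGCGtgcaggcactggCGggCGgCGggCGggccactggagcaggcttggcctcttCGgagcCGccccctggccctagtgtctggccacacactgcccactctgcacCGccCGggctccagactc
Hoxa13: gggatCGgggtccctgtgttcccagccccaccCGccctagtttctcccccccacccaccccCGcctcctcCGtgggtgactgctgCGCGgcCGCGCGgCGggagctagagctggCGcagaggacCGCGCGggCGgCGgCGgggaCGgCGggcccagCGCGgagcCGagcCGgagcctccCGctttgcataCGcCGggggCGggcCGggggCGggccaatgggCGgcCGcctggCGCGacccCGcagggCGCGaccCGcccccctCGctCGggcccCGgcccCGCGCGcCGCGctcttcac
Cxcl1: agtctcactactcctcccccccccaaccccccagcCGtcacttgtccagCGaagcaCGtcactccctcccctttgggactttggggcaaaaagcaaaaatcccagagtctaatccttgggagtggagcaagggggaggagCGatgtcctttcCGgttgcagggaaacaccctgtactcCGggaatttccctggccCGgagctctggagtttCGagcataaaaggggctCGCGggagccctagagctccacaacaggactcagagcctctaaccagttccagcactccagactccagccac
The CG dinucleotide occurred 45 times in the 300 bases of Hoxa13 and 24 times in Mrpl53, against 10 times in Cxcl1. The olfactory receptor Olfr1013 (chr2:85769553-85769852, plus strand) stands for the other extreme. Its sequence holds no CG, has a GC content of 24%, and its window had 0 reads in either library.
Olfr1013: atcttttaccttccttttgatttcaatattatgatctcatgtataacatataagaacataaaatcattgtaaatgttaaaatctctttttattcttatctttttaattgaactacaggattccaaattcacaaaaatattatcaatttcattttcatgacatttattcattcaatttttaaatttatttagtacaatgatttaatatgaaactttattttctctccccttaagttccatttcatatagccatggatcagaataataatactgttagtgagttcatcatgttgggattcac
A count of 0 allows up to 3 reads, or 0.315 RPM in GFI1-KD and 0.335 RPM in GFI1-WT. Pklr (chr3:89135892-89136191, plus strand) and Trim10 (chr17:36869324-36869623, plus strand) had the mark in GFI1-WT and little of it in GFI1-KD. In these the letters AGATAA or their reverse complement TTATCT, the motif of GATA factors, are in capitals, found once in each. The same letters also occur once in Olfr1013, where they are not capitalised, and are absent from the promoter of Tspo2, another erythroid member low in GFI1-KD.
Pklr: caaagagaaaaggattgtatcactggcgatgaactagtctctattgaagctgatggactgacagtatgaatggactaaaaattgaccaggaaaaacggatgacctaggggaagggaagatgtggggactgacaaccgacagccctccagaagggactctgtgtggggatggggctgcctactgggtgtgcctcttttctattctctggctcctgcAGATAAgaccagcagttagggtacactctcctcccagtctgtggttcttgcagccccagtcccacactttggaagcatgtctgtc
Trim10: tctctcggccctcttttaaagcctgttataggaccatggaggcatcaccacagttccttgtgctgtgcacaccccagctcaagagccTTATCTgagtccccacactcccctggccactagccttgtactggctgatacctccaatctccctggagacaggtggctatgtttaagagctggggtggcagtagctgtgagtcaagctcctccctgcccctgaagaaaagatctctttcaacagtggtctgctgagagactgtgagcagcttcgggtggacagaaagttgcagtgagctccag

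Most members lacked the mark. A window was called marked when it held at least 4 times the reads of the median autosomal 2 kb tile in each library, which came to 8 reads, or 0.839 RPM in GFI1-KD and 0.894 RPM in GFI1-WT. By this rule 835 of 4770 members were marked, or 17.5%, against 69.7% of all autosomal protein-coding genes. The share was 61.3% among 3792 genes with a trace of RNA (2 to 240 summed counts) and 94.3% among 11407 expressed genes (over 240). The median level followed the same order, at 0.213 RPM in members, 2.60 RPM in trace genes and 25.9 RPM in expressed genes. Within the members, 15.0% of those with 0 counts were marked, and 35.0% of those with 1 count. Just outside the rule, 46.3% of the 374 genes with 2 counts were marked. The highest levels among members with 1 count were those of Prickle4, Cdkl1 and Epha4, at 54.9, 39.5 and 34.6 RPM. Among genes with 2 counts they were those of Ccdc148, Ccdc87 and Mip, at 37.9, 37.5 and 36.9 RPM.

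**Figure D1:**
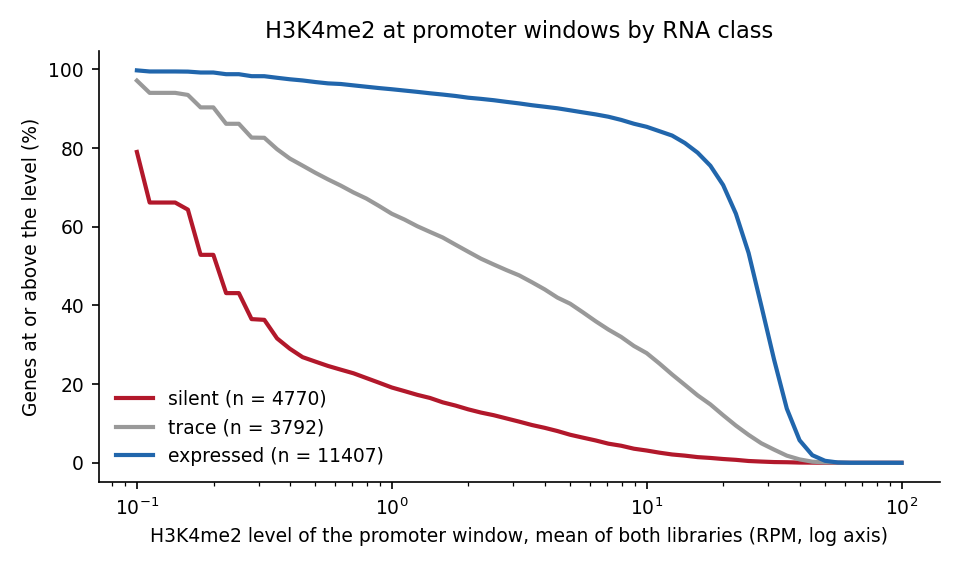
Share of genes (vertical axis, %) whose promoter window reaches a given H3K4me2 level (horizontal axis, mean RPM of the GFI1-KD and GFI1-WT libraries, log scale), for silent, trace and expressed genes. The silent curve lies lowest, with a median of 0.213 RPM, and its tail reaches the levels of expressed genes.

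The tail of members with a strong mark was long. Marked members had a median of 4.05 RPM, and 149 members reached 10 RPM. An expressed neighbour, meaning another gene of over 24 summed RNA counts with an end within 2 kb of the window's centre, was present for 79 of the 835 marked members and absent for 756. Of all 144 members with such a neighbour, 54.9% were marked. The gene body overlapped another annotated gene in 42.3% of marked members, in 48.3% of those of at least 10 RPM, and in 19.4% of unmarked members. The sources do not say how reads shared by 2 genes were counted, so 0 counts at an overlapped gene need not mean that it is not transcribed.

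The highest levels with an expressed neighbour were those of Prickle4, Nme3 and Zbtb9. Prickle4 had 555 reads in GFI1-KD and 462 in GFI1-WT (58.2 and 51.6 RPM), and its window lies beside Usp49. Nme3, a nucleoside diphosphate kinase, had 460 and 435 reads in GFI1-KD and GFI1-WT, beside Mapk8ip3. Zbtb9, a zinc finger gene, had 387 reads in GFI1-KD and 365 in GFI1-WT, beside another expressed gene. The Prickle4 window is at its 3′ end. All 3 lie above the median of expressed genes, and the mark of the neighbour and of the member cannot be told apart.

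Among members without such a neighbour, Cdkl1, a CDK-like kinase, led with 340 reads in GFI1-KD and 388 in GFI1-WT (35.6 and 43.4 RPM). Pdcd2, a gene of ribosome assembly, had 32.6 RPM in GFI1-KD and 41.7 RPM in GFI1-WT. Mrpl53, a mitochondrial ribosomal protein, had 34.8 and 39.2 RPM in GFI1-KD and GFI1-WT, and its gene overlaps Ccdc142. Exosc6, a subunit of the RNA exosome, had 25.1 RPM in GFI1-KD and 26.8 RPM in GFI1-WT, at its 3′ end. Pdcd2, Mrpl53 and Exosc6 are known as genes of most cell types, yet each had 0 RNA counts in all 24 libraries.

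Others in the same range are known for restricted expression. Epha4, a receptor of ephrins, had 449 reads in GFI1-KD and 198 in GFI1-WT (47.1 and 22.1 RPM). Foxq1, a forkhead factor, had 396 and 230 reads in GFI1-KD and GFI1-WT (41.5 and 25.7 RPM). Tnfaip8l3, a lipid transfer protein of the TNFAIP8 family, had 371 reads in GFI1-KD and 151 in GFI1-WT (38.9 and 16.9 RPM). Boc, a hedgehog co-receptor, had 297 reads in GFI1-KD and 215 in GFI1-WT, and the sialyltransferase gene St6galnac3 had 25.1 and 28.7 RPM. Klf12, a Krüppel-like repressor, had 27.2 RPM in GFI1-KD and 21.8 RPM in GFI1-WT. Their means over both libraries ran from 24.5 to 34.6 RPM, beside a median of 25.9 RPM in expressed genes.

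CpG-rich members were marked more often than the others, but many marked members were not CpG-rich. Of 3877 members with a promoter sequence, 390 (10.1%) were CpG-rich, meaning a CG count of at least 0.6 of that expected from the base composition and a GC content of at least 50%. Among all genes with a sequence the share was 48.2%. Of the 390, 265 were marked (67.9%), against 359 of 3487 other members (10.3%). These 359 made up 57.5% of the 624 marked members with a sequence. The class is that of the 5′ sequence, while the window was the 3′ end in 118 of the 624, of which 18 were CpG-rich. With every window at the 5′ end, 264 of 540 marked members were CpG-rich. RNA and CpG content each went with the mark: of CpG-rich expressed promoters 97.4% were marked, and of the other expressed promoters 87.5%. The median level of CpG-rich members was 2.75 RPM and that of other members 0.164 RPM.

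Averaged around the 5′ end, CpG-rich members reached 0.482 RPM per 100 bases in GFI1-KD and 0.411 RPM in GFI1-WT. The outermost kilobase on each side held 0.0318 RPM in GFI1-KD and 0.0348 RPM in GFI1-WT, so the peak stood 15.2 times and 11.8 times above them. The peak of other members was 2.39 times its flank in GFI1-KD and 2.40 times in GFI1-WT. Expressed CpG-rich promoters peaked at 1.84 RPM in GFI1-KD and 1.88 RPM in GFI1-WT, at 550 and 450 bases downstream of the start. They had a dip at the start, where the bins within 100 bases averaged 0.915 RPM in GFI1-KD and 0.998 RPM in GFI1-WT. Silent CpG-rich promoters had their highest bin nearer the start, at 150 bases in GFI1-KD and 250 bases in GFI1-WT, with 0.418 and 0.371 RPM within 100 bases of it. The window used was the 5′ end in 81.1% of marked members with a known strand and in 93.2% of marked CpG-rich ones, against 51.9% of unmarked members and 94.0% of marked genes that are not members.

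**Figure D2:**
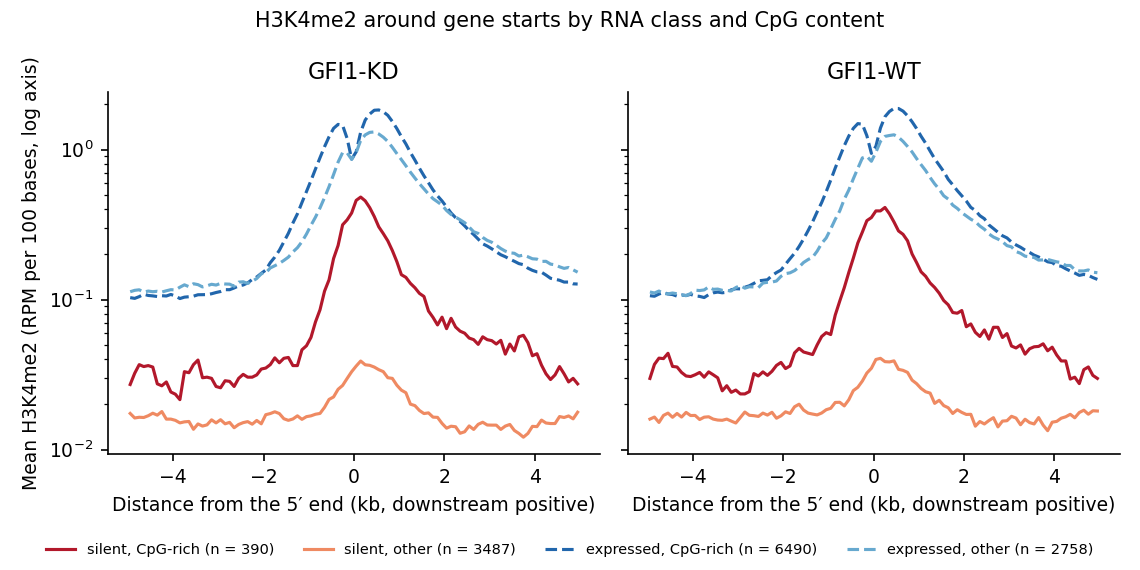
Mean H3K4me2 (RPM per 100 bases, log axis) from 5 kb before to 5 kb after the 5′ end, GFI1-KD left and GFI1-WT right, for silent and expressed genes with CpG-rich or other promoters. Silent CpG-rich promoters have a single peak below the 2 shoulders of expressed promoters, and other silent promoters lie lowest, with a peak of 2.39 times the flank in GFI1-KD.

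Gene families differed widely in how many silent members were marked. Lists of developmental transcription factors stood highest. In the homeobox list 64 of 101 members were marked. In the list named for SOX, FOX, T-box, GATA and bHLH factors 52 of 63 were, together 116 of 164. The lists were drawn by gene symbol and also hold some genes outside these families, such as Zic1, Dmrt1, Prdm14, Sall1 and Pou2af1. Of 21 WNT, FGF, BMP and hedgehog ligands, 11 were marked. Marked members made up 18 of 38 voltage-gated channels and 13 of 40 neurotransmitter receptors. The background for these counts is the 17.5% of all members. They are counts without a test, and the lists differ in CpG content.

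Hoxa13, a factor of limb and genital patterning, had 176 reads in GFI1-KD and 105 in GFI1-WT (18.5 and 11.7 RPM). Nkx2-3, needed for spleen and gut vessels, had 14.2 RPM in GFI1-KD and 11.6 RPM in GFI1-WT, at its 3′ end. Hoxb8, a Hox gene that can immortalise myeloid progenitors, had 13.6 and 7.93 RPM in GFI1-KD and GFI1-WT, also at the 3′ end. Neurog2, a proneural factor, had 192 reads in GFI1-KD and 130 in GFI1-WT (20.1 and 14.5 RPM). Gata6, a factor of endoderm and heart, had 15.4 RPM in GFI1-KD and 13.2 RPM in GFI1-WT. The lowest of the families were Obox1, an oocyte homeobox gene, with 1 read in GFI1-KD and 0 in GFI1-WT, and Myf5, a muscle factor, with 1 and 2 reads.

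Signalling and channel genes reached similar levels. Wnt11 had 11.8 RPM in GFI1-KD and 8.27 RPM in GFI1-WT, and Wnt7a 9.85 and 7.15 RPM. Kcnc1, a potassium channel of fast-spiking neurons, had 175 reads in GFI1-KD and 80 in GFI1-WT (18.3 and 8.94 RPM). Adra1d, an adrenergic receptor, had 17.2 RPM in GFI1-KD and 12.9 RPM in GFI1-WT. Gjb2, the connexin of the inner ear and skin, had 15.3 and 15.5 RPM in GFI1-KD and GFI1-WT. Spo11, which makes the double-strand breaks of meiosis, had 15.7 RPM in GFI1-KD and 17.9 RPM in GFI1-WT, although only 8 of 49 germ cell members were marked.

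Large tandem families were nearly devoid of the mark. Of 1036 olfactory receptor members 9 were marked, and 90 had no read in either library. Their median level was 0.157 RPM. The highest was Olfr658, with 40 reads in GFI1-KD and 43 in GFI1-WT. Of 299 vomeronasal receptors 1 was marked, Vmn2r29, with 77 reads in GFI1-KD and 73 in GFI1-WT, and its promoter is CpG-rich. None of 65 defensins, 50 taste and trace amine receptors, 34 cornified envelope genes or 24 placental prolactin genes was marked. Of 91 keratin and keratin-associated genes 4 were, led by Krt1 with 31 reads in GFI1-KD and 34 in GFI1-WT. Reads of a mapping quality under 10 made up 0.394% of the GFI1-KD reads in members' windows and 0.47% of the GFI1-WT reads; reads that mapped to several copies may have been dropped before deposit, so a low level in near-identical copies is uncertain.

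**Figure D3:**
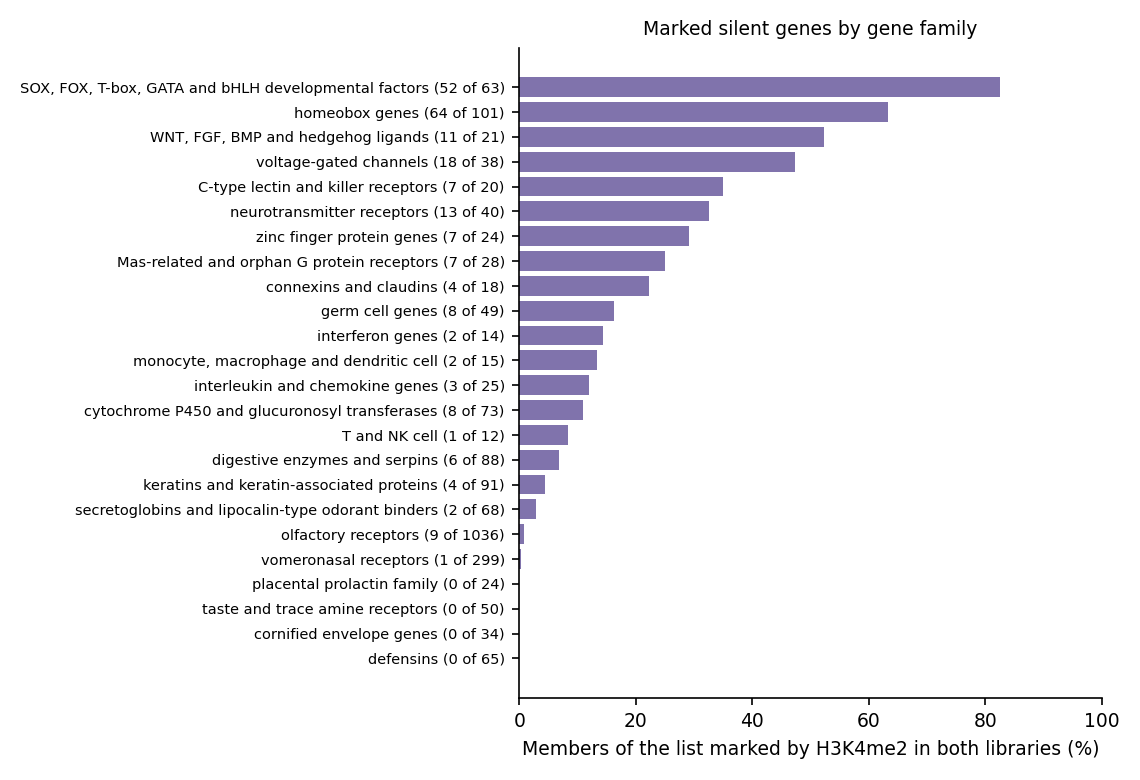
Percentage of the silent members of each gene family or marker list that are marked in both libraries, with the counts beside each name, for lists of at least 10 members. Developmental transcription factors lie at the top (52 of 63 and 64 of 101) and sensory receptor, defensin, prolactin and cornified envelope genes at the bottom.

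GFI1-KD and GFI1-WT had nearly the same summed level at the members. The pooled log2 of GFI1-KD over GFI1-WT was -0.0027 (counting interval -0.0194 to 0.0139), with 59465 reads in GFI1-KD and 55896 in GFI1-WT. Split by the mark rule, which uses these same reads, the parts of the sum differed in sign. Marked members had a pooled log2 of 0.068 (0.050 to 0.086), with 51729 reads in GFI1-KD and 46307 in GFI1-WT, beside 0.011 for all marked windows. Unmarked members had -0.40 (-0.45 to -0.36). The rule places windows low in 1 library among the unmarked, and unmarked tiles also held relatively fewer reads in GFI1-KD. The part of either in this split was not tested. Of 892 members with at least 20 summed reads, 71 were at least 2-fold higher in GFI1-KD (7.96%), against 4.68% of all 14078 windows with as many reads. At least 2-fold lower were 125 members (14%), against 3.00% of all. The counting interval excluded a ratio of 1 for 63 of the 71 and 119 of the 125. In a bulk library, fewer cells of a type and less mark per cell cannot be told apart.

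These shares depend on the level and on the scaling. Among windows of 20 to 39 reads, 10.5% of members were higher and 23.3% lower, against 16.3% and 19.7% of other genes. Among windows of 40 to 99 reads, 8.52% of members were higher and 14.1% lower, against 15.5% and 9.67% of other genes. Among windows of at least 100 reads, 5.30% of members were higher and 6.23% lower, against 2.98% and 0.755% of other genes. Members thus passed a 2-fold difference more often than other genes in the highest of these ranges and less often in the lower ones, both directions counted. The highest range has no upper end, so levels are not matched within it. Of windows with at least 10 RPM, the median was 15.2 RPM in members and 27.0 RPM in other genes. Unmarked tiles held relatively fewer reads in GFI1-KD: scaling to them moved every log2 value by 0.32, and the count of members became 139 higher and 97 lower, against 9.42% and 2.07% of all windows. So the excess of lower members over higher ones is not independent of the scaling. Of CpG-rich members with enough reads, 14 of 273 were higher (5.13%) and 12 lower (4.40%), beside 1.71% and 0.737% of all CpG-rich promoters. Of the other members with a sequence, 42 of 397 were higher (10.6%) and 77 lower (19.4%), beside 9.73% and 6.59% of all other promoters.

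**Figure D4:**
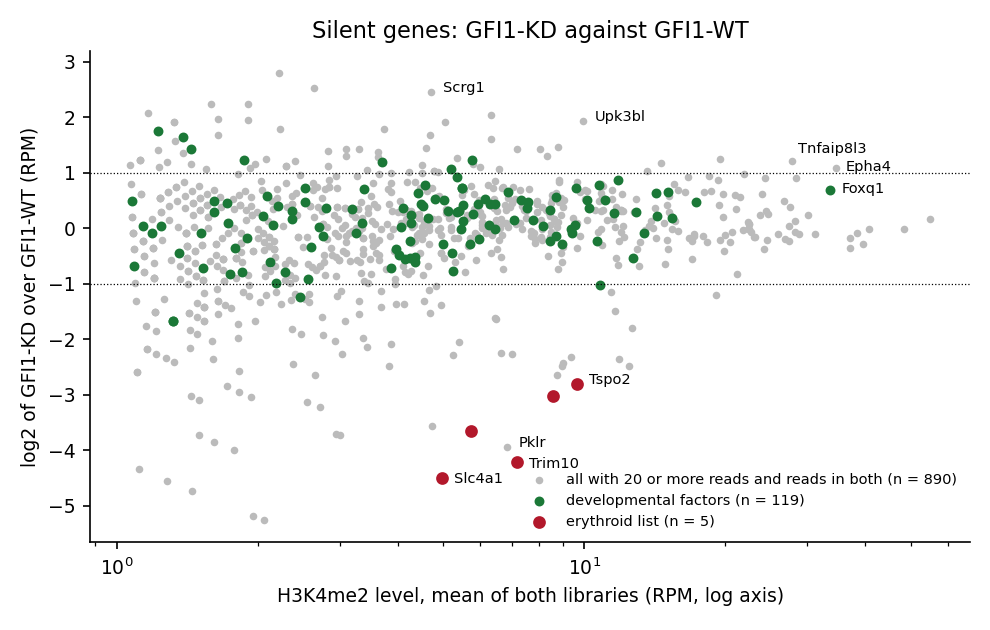
Log2 ratio of GFI1-KD over GFI1-WT (vertical axis) against the mean H3K4me2 level (RPM, log axis) for silent genes with at least 20 summed reads and reads in both libraries, each point 1 gene. Dotted lines mark a 2-fold difference. The 5 erythroid list members all lie below -2.8. The developmental factors lie on both sides of 0, and the 114 marked ones have a median of 0.18.

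The 8 marked members with the lowest ratios included genes of red cells. Pklr, the pyruvate kinase of liver and red cells, had 8 reads in GFI1-KD and 115 in GFI1-WT (0.839 and 12.9 RPM), a ratio of 0.0653 (counting interval 0.0275 to 0.133). Cldn13, a claudin, had 18 and 137 reads in GFI1-KD and GFI1-WT, a ratio of 0.123. Tspo2, a translocator protein of erythroid cells, had 23 reads in GFI1-KD and 151 in GFI1-WT, a ratio of 0.143. In each of these 3 windows the GFI1-WT level was above 10 RPM and the GFI1-KD level under 3 RPM.

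The erythroid marker list holds 6 members, among them Cldn13 and Tspo2 but not Pklr, and 5 of them had enough reads for a ratio. All 5 were at least 2-fold lower in GFI1-KD, beside 3.00% of all windows with as many reads. Trim10, a tripartite motif protein of terminal erythroid cells, had 7 reads in GFI1-KD and 122 in GFI1-WT, a ratio of 0.0538 (0.0212 to 0.114). Slc4a1, the band 3 anion exchanger, picked after its values were seen, had 4 reads in GFI1-KD and 85 in GFI1-WT, or 0.419 and 9.50 RPM. The member with too few reads, the embryonic globin gene Hba-x, had 4 and 6 reads in GFI1-KD and GFI1-WT. Summed over the 6, 64 reads in GFI1-KD stood against 596 in GFI1-WT, a pooled log2 of -3.31 (counting interval -3.71 to -2.94). Without the erythroid list, 120 of 887 members with enough reads were still at least 2-fold lower. Trim10 and Slc4a1 do not count as marked, since the rule asks for 8 reads in both libraries. Where the end was chosen on GFI1-KD reads alone, the window moved to the other end and the log2 was -0.88 for Pklr and -0.41 for Slc4a1, short of 2-fold.

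Over the whole erythroid list most genes were lower in GFI1-KD as well. Of the 27 genes of the list, 25 had enough reads, and they are not replicates. Among them 18 were at least 2-fold lower in GFI1-KD and 0 higher, beside 3.00% and 4.68% of all windows. The list held 2294 reads in GFI1-KD and 3877 in GFI1-WT. The genes named next were picked to show the range after their values were seen. Epb42 had 12 reads in GFI1-KD and 120 in GFI1-WT, and Kel 19 and 157. Hbb-y had 0 reads in GFI1-KD and 23 in GFI1-WT. The regulators Tal1 and Klf1 had 33.3 and 19.7 RPM in GFI1-KD, against 32.3 and 28.3 RPM in GFI1-WT. The part of a different share of erythroid cells between the libraries in these values was not tested.

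**Figure D5:**
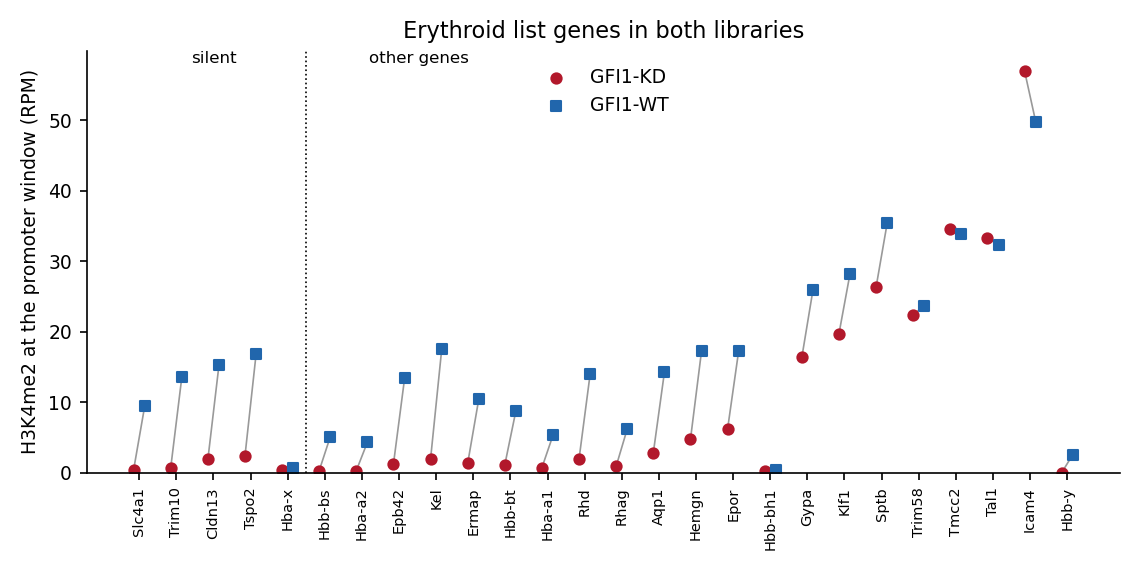
H3K4me2 level (RPM) at the promoter windows of erythroid list genes, GFI1-KD as circles and GFI1-WT as squares, with silent members left of the dotted line. In each silent member shown except Hba-x, GFI1-KD lies under 3 RPM and GFI1-WT above 9 RPM.

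Further members with a ratio of 0.25 or less were found outside the list; Car1 and Hbq1b were picked after their values were seen. Car1, a carbonic anhydrase abundant in red cells, had 7 reads in GFI1-KD and 78 in GFI1-WT. Hbq1b, a theta globin gene, had 23 and 104 reads in GFI1-KD and GFI1-WT, at its 3′ end. Ackr1, the Duffy chemokine receptor, had 26 reads in GFI1-KD and 136 in GFI1-WT, and its window is nearly the same as that of Cadm3, so the 2 are not separate observations; it is the 3′ end of both. Agtr1a, the angiotensin receptor, had 23 and 135 reads in GFI1-KD and GFI1-WT. Ccdc27 had 36 reads in GFI1-KD and 190 in GFI1-WT, at its 3′ end beside the expressed gene Smim1. Pdia2, a disulfide isomerase, had 11 reads in GFI1-KD and 58 in GFI1-WT, beside Arhgdig.

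The members with more mark in GFI1-KD were of mixed kinds. Scrg1 had 76 reads in GFI1-KD and 13 in GFI1-WT (7.97 and 1.45 RPM), a ratio of 5.48 (3.02 to 10.8). Upk3bl, a uroplakin-like gene, had 150 and 37 reads in GFI1-KD and GFI1-WT, at its 3′ end. Adamtsl1 had 33 reads in GFI1-KD and 9 in GFI1-WT, and Fam170a 91 and 28. Some are known in myeloid cells. Cxcl1, a chemokine that draws neutrophils, had 76 reads in GFI1-KD and 19 in GFI1-WT, a ratio of 3.75 (2.25 to 6.57). Clec4b1, a C-type lectin of dendritic cells, had 55 and 15 reads in GFI1-KD and GFI1-WT, and Adgre4, an adhesion receptor of macrophages, had 68 and 20. Ear2, an eosinophil-associated ribonuclease, had 61 reads in GFI1-KD and 28 in GFI1-WT, at its 3′ end. Il12b, the p40 chain of interleukin-12, had 44 and 20 reads. Cxcl5 and Cxcl15, related chemokine genes, went the other way, with 26 and 7 reads in GFI1-KD and 64 and 21 in GFI1-WT. Of 4 interleukin and chemokine members with enough reads, 2 were at least 2-fold higher and 2 lower. Among 7 C-type lectin and killer receptor members, 1 was higher and 2 lower, beside 4.68% and 3.00% of all windows.

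Several marker lists, myeloid and other, held more reads in GFI1-KD. Of the 31 genes of the monocyte, macrophage and dendritic cell list, 16 had enough reads, 11 were at least 2-fold higher in GFI1-KD and 0 lower, beside 4.68% and 3.00% of all windows, with 1716 reads in GFI1-KD and 860 in GFI1-WT. Its 15 silent members had 95 reads in GFI1-KD and 79 in GFI1-WT, and Marco had 0 and 3. Elane and Mpo, granule genes of neutrophil precursors, had 25.8 and 16.7 RPM in GFI1-KD, against 6.48 and 8.05 RPM in GFI1-WT. Both belong to the progenitor list and were picked outside the rule for named genes. The 12 genes of the progenitor list had 3641 reads in GFI1-KD and 2628 in GFI1-WT, and 4 of the 12 were at least 2-fold higher. Another 3 of the 12 were lower in GFI1-KD, short of 2-fold: Myb, Runx1 and Kit, with log2 values of -0.33, -0.31 and -0.22. Of the eosinophil, mast cell and basophil list, 4 of 16 genes were higher and 3 lower, with a pooled log2 of 0.11 (-0.09 to 0.31). The pooled log2 was 0.38 for the progenitor list, 0.38 for the stromal, endothelial and bone list, 0.33 for the T and NK cell list and 0.31 for the stem cell list. The part of the cell makeup in the higher members was not tested.

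Among the 12 highest members without an expressed neighbour, Epha4 and Tnfaip8l3 were at least 2-fold higher in GFI1-KD. Epha4 had a ratio of 2.13 (1.8 to 2.53) and Tnfaip8l3 a ratio of 2.31 (1.90 to 2.80). Foxq1 had a ratio of 1.62 (1.37 to 1.91), short of 2. Developmental transcription factors differed by less: of 114 marked members with at least 20 reads, 73 were higher in GFI1-KD, with a median log2 of 0.18, beside 435 of all 815 such members and a median of 0.05. Their pooled log2 was 0.20 (0.15 to 0.25). Olfactory receptor members had a pooled log2 of -0.41 (-0.51 to -0.32), with 1590 reads in GFI1-KD and 1987 in GFI1-WT. Unmarked members as a whole had 7736 reads in GFI1-KD and 9589 in GFI1-WT, so the low windows shared that direction, as unmarked tiles did.

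Short motifs were looked up in the 300-base promoters on both strands, as a description of letters. AGATAA was present in 15 of 89 members at least 2-fold lower in GFI1-KD (16.9%), in 7 of 56 higher ones (12.5%) and in 38 of 525 within 2-fold (7.24%). It was present in 9.65% of all 15997 promoters and in 19.2% of unmarked members. AATCA, part of the motif bound by GFI1, was present in 40.4% of lower, 39.3% of higher and 31.8% of other members with enough reads, and in 35.0% of all promoters. TATAAA was present in 10.6% of marked members, against 31.8% of unmarked members and 13.2% of all promoters. Members with the mark and without it differ in base composition, which sets how often such letters occur.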

How the data were processed

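Each line of the deposited ChIP files is 1 aligned read, and its score is the mapping quality; per the submitters' processing notes CASAVA 1.8.2, BWA and bedtools 2.27.0 were used on mm10 (GRCm38). The RNA table holds whole-number counts per gene and library, deposited by the authors, aligned with STAR 2.5.3 per the same notes; the counting tool and its strand setting are not stated there. The RNA kit was stranded and for total RNA, per the labels' protocols. RNA totals were 22402558 to 32674685 counts. Of 20661 autosomal protein-coding RefSeq genes, 19601 were matched by symbol, 368 by synonym and 692 not. Reads were placed by their middle, and no position repeated within a strand. No input library was used here. RNA counts chose the members, the RNA classes and the expressed neighbours; 0 table columns were left unmatched.

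The members, lists, thresholds and the rule for named genes were chosen with earlier results of these data known. Named genes are the 12 members of highest mean level without an expressed neighbour and the 5 highest with one, the 8 largest and 8 smallest ratios among marked members of at least 40 reads, up to 4 highest and the lowest of each of 31 lists, and the 3 highest with 1 or 2 RNA counts; not all are printed, and some genes are not reported here. Sequences were limited to promoters inside the window. Window counts and folds were tested on simulated data. Tools were Python 3.11.15, numpy 2.4.6, pandas 2.3.3, scipy 1.17.1 and matplotlib 3.10.9.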

Additional observations from a re-analysis of the deposited data

How the results depend on the processing

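Most alternatives kept a count within 1.5 times its value; the exceptions among the main counts follow. The sets counted differ in size between settings, so these counts do not compare directly with the main ones. With windows of 0.5 kb to each side, 78 of 670 members with enough reads were at least 2-fold lower in GFI1-KD. At the 5′ end of the promoter table, which 3877 members have, 540 were marked, 497 without an expressed neighbour. Of 568 with enough reads there, 46 were higher and 64 lower. At the end with fewer reads, 125 were marked, 109 without an expressed neighbour, and 48 CpG-rich ones were marked. Of 136 with enough reads at that end, 16 were higher and 19 lower. With up to 24 RNA counts there were 6814 members, of which 1930 were marked, 1656 without an expressed neighbour and 598 CpG-rich. Of 2009 with enough reads, 169 were higher and 226 lower. Membership from H9M libraries alone gave 6123 members, of which 1609 were marked, 1459 without an expressed neighbour and 559 CpG-rich. Of 1687 with enough reads, 129 were higher and 188 lower. From MN1 libraries alone there were 5265 members, and 110 of 1147 with enough reads were higher. Scaling to unmarked tiles gave 139 higher. A minimum of 10 reads gave 122 higher and 209 lower of 1225 members, and of 40 reads 43 and 63 of 626. A fold of 1.5 gave 172 and 204 of 892, and a fold of 3 gave 21 and 75. A stricter CpG rule (0.75 and 55% GC) left 168 marked.

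The pooled log2 of -0.0027 left its counting interval, in either direction, under these alternatives: -0.0329 with 2 kb either side, 0.0648 where the end was chosen on GFI1-KD reads alone and -0.0571 on GFI1-WT reads alone, -0.20 at the end with fewer reads, -0.0355 with 0 counts only, 0.0835 with up to 24 counts, 0.0924 and 0.0758 with H9M or MN1 membership, 0.0200 scaled to marked promoters and 0.32 scaled to unmarked tiles. The cause was not tested. Alternatives chosen after seeing the data gave 319 marked at 20 times the median tile, 447 without an expressed neighbour whose body overlaps no other gene, and 73 lower among marked members, where the rule drops windows low in 1 library.

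At the end with fewer reads the log2 changed sign for Scrg1 (-0.51), Cxcl1 (-1.09) and Epha4 (-0.0920), since that end is another window. There Pklr (-0.88), Slc4a1 (-0.41), Trim10 (-0.0920), Agtr1a (-0.0920), Clec4b1 (0.91) and Adamtsl1 (0.91) no longer passed 2-fold. Upk3bl, Adgre4, Fam170a and Ccdc27 gave no finite log2 at that end. Marked developmental factors numbered 75 at the 5′ end of the promoter table, 31 at the end with fewer reads and 50 at 20 times the median tile, against 116. Leaving out replicate 1, 2 or 3 of each RNA group gave 5049 to 5089 members. No paired analysis was possible because each H3K4me2 group has 1 library. At this depth a ratio of 2 cannot be told from counting error in windows of few reads.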
